A study of Mus musculus with 2 samples.

Results

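Potassium channel genes were taken as the protein-coding genes whose symbol is Kcn, 1 to 3 letters and a number, leaving out Kcnk3, Kcnk9 and Kcnj5. The rule found 89 genes among 22015 nuclear protein-coding genes and 55536 genes in all. Of these, 74 encode pore-forming subunits and 15 encode auxiliary subunits. Adrenal gland RNA came from male mice of the strain B6CASTF1/J, a cross of C57BL/6J with CAST/EiJ, aged 36 days and with no treatment named, and was sequenced as total RNA. The study has 1 group of 2 libraries, each made from 300 ng of RNA depleted of ribosomal RNA, with ERCC spike-in RNA added. The labels conflict on whether these came from 1 animal or from different animals, so the difference between the libraries may be technical. Every p-value below sets 1 library against 1 and covers counting error only, not a spread between libraries or animals.

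Potassium channels let potassium leave the cell along its gradient and so pull the membrane towards a negative potential. The pore-forming subunits assemble around a shared selectivity filter, a short protein segment that lets potassium through and holds sodium back. The classes differ in what opens or closes them: voltage, intracellular calcium or sodium, or, in the inward rectifiers and the two-pore domain channels, signals such as ATP, G proteins, pH, lipids and stretch. In the adrenal cortex, potassium conductance sets the resting potential on which aldosterone output depends. In chromaffin cells of the medulla, calcium-activated channels shape the firing that releases catecholamines.

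Replicate 1 held 35813366 expected counts and replicate 2 held 30628771, and 15974 and 13617 of these fell on the 89 genes. Markers of the labelled tissue were present in both libraries: the 4 fasciculata genes of the cortex summed to 9589 and 5064 TPM (a level per transcript length, with a fixed sum per library) and the 7 chromaffin cell genes to 1440 and 1687 TPM. Replicate 2 also held RNA of pancreas genes, with 221550 expected counts on 5 pancreatic acinar genes against 6 in replicate 1, and more of liver genes, with 5323 counts on 4 genes against 638. RNA of fat was present in both libraries, with 5 brown and white fat genes at 1003 and 980 TPM (40234 and 46697 counts). Nuclear protein-coding genes took 31.0% of all TPM in replicate 1 and 23.2% in replicate 2, so a gene with the same TPM in both libraries held a larger share of coding RNA in replicate 2. In whole tissue, fewer cells of a type and less RNA per cell cannot be told apart.

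The selectivity filter is what the pore-forming genes share by function, and it was read from their coding sequences as a check of the gene set. The motif searched in the translated coding sequences was serine or threonine, then valine, isoleucine or leucine, then glycine, tyrosine or phenylalanine, and glycine. It was found in 72 of the 74 pore-forming genes, both in any transcript and in the longest coding sequence, and in 0 of the 15 auxiliary genes. Over 21901 protein-coding genes, 158 (0.721%) held it in the longest coding sequence. The 2 exceptions were Kcnk1 and Kcnk7, and 9 genes held it more than once, as two-pore domain channels are known to. To show how the filter varies in DNA among the classes expressed here, 10 windows of 45 bases are given for 9 genes from GENCODE M21 transcripts on mm10, 5′ to 3′ on the coding strand, with the 15 filter bases in capitals.
Kcnma1, BK channel: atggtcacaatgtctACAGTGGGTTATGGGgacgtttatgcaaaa
Kcnn3, SK channel: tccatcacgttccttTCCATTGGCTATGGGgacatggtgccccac
Kcnq1, Kv7 channel: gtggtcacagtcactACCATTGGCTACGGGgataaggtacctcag
Kcnh2, ERG channel: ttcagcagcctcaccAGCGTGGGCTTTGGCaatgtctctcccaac
Kcng3, silent subunit: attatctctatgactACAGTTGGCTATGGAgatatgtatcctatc
Kcnj8, Katp pore: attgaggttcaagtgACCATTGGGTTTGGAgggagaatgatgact
Kcnj2, inward rectifier: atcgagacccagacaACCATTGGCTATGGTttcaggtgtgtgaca
Kcnk2, first pore: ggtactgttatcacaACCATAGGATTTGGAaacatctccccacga
Kcnk2, second pore: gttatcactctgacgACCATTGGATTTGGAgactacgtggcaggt
Kcnk1, first pore: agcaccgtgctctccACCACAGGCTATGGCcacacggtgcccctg

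Counted from 1 at the first capital, the genetic code fixes the bases at positions 7, 8, 10, 13 and 14 for the glycines and the tyrosine or phenylalanine of the motif, so these are equal by the choice of the motif. Between any pair, 9 to 14 of the 15 bases were equal, these included, with a median of 11 over 45 pairs. Kcnk1 is shown because its first filter has threonine in the second place, which the motif does not allow. The Kcnma1 window lies at chr14:23528398-23528442 on the minus strand in exon 8 of 27, that of Kcnh2 at chr5:24325540-24325584 on the minus strand in exon 7 of 15, and that of Kcnn3 at chr3:89645497-89645541 on the plus strand in exon 4 of 8. The Kcng3 window is at chr17:83587899-83587943 in exon 2 of 2 and the Kcnj8 window at chr6:142566433-142566477 in exon 3 of 3, both on the minus strand, and the Kcnj2 window at chr11:111072192-111072236 in exon 2 of 2 on the plus strand. The other 4 windows run across an intron: Kcnq1 from exon 6 to exon 7 (chr7:143184540-143191461, plus strand), the Kcnk2 filters from exon 3 to exon 4 (chr1:189258876-189295615) and from exon 5 to exon 6 (chr1:189243025-189256610), both on the minus strand, and Kcnk1 from exon 1 to exon 2 (chr8:125995793-126025034, plus strand).

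Most potassium channel genes were at low levels, and calcium-activated channels led the set. Of the 89 genes, 19 reached 1 TPM in both libraries, or 21.3%, against 52.4% of nuclear protein-coding genes. A further 5 reached it in replicate 1 alone (Kcnk5, Kcnk1, Kcns3, Kcnq3 and Kcnip1), and 65 were below 1 TPM in both. The median level was 0.30 TPM in replicate 1 and 0.24 in replicate 2, against 1.65 and 1.54 for all nuclear protein-coding genes. The summed level was 147 TPM in replicate 1 and 117 in replicate 2 (132 ± 21.001, mean ± SD, n = 2), and 473 and 504 (488 ± 21.99) when TPM was rescaled over nuclear protein-coding genes. The 2 highest genes, Kcnn2 and Kcnma1, held 49.0% and 50.1% of the set's TPM in replicates 1 and 2, and the 10 highest held 73.0% and 74.3%. Of the genes left out by the rule, Kcnk3 alone stood above this sum, at 359 and 202 TPM, while Kcnk9 was at 43.6 and 29.9. Kcnj5 was at 0.11 and 0.13 TPM in the gene table, but the authors' quantifications differed widely for it. Rescaled over nuclear protein-coding genes, Kcnj5 was at 0.354 and 0.559 in the gene table. In the second transcript tables, made straight from reads, it was at 75.6 and 64.3 on that scale.

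**Figure D1:**
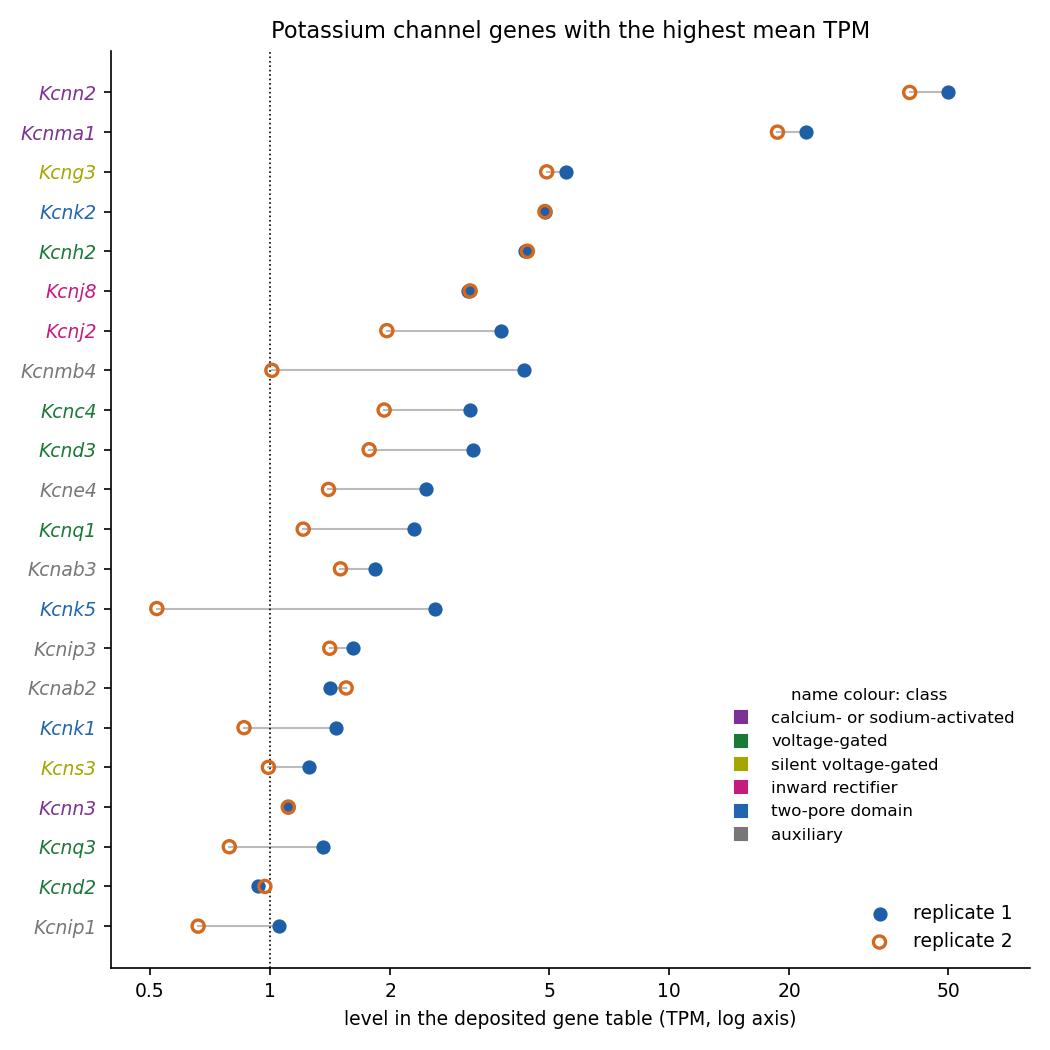
Deposited TPM (log axis) of 22 of the 25 potassium channel genes with the highest mean, in replicate 1 (filled) and replicate 2 (open); names are coloured by class and the dotted line marks 1 TPM. Kcnn2 and Kcnma1 lie above 18 TPM in both libraries, every other gene drawn lies below 6 TPM, and Kcnmb4 and Kcnk5 show the widest gaps between the libraries.

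Along this order, 5 of the 24 neighbouring pairs among the 25 highest genes were separated by more than the larger of their SDs. These included Kcnn2 over Kcnma1, Kcnk2 over Kcnh2 and Kcnh2 over Kcnj8. From Kcnj8 down to the 25th gene, neighbours did not differ beyond their spread. The SD of 2 libraries is itself uncertain, and it includes their difference in TPM scale.

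Calcium- and sodium-activated channels were the class with the highest summed level, at 69.1 ± 9.27 TPM over 8 genes, or 51.5% and 53.4% of the set's TPM. Kcnn2, which encodes the small-conductance SK2 channel that calmodulin opens, was at 49.85 TPM in replicate 1 and 40.0 in replicate 2, from 3552 and 3137 expected counts. It ranked 1060 of the 22015 coding genes by mean TPM (ENSMUSG00000054477.16, chromosome 18, 45268860 to 45686024, plus strand). The other SK genes were far lower in both libraries. Kcnn3 (SK3) was at 1.11 TPM in each, Kcnn1 (SK1) at 0.68 and 0.87, and Kcnn4, the intermediate-conductance channel of blood and epithelial cells, at 0.40 and 0.12. Kcnn2 was 44.9 times as high as Kcnn3 in replicate 1 and 36.1 times in replicate 2.

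Kcnma1 encodes the large-conductance BK channel, which opens on calcium and voltage together. It was at 22.02 TPM in replicate 1 and 18.7 in replicate 2, from 3246 and 2444 expected counts (ENSMUSG00000063142.15, chromosome 14, 23289431 to 24014491, minus strand). The ratio of Kcnn2 to Kcnma1 was nearly the same in the libraries, at 2.26 and 2.14. The remaining genes of the class were below 1 TPM: the sodium-activated channels Kcnt1 (0.69 and 0.86 TPM) and Kcnt2 (0.55 and 0.36), and Kcnu1, known as the channel of sperm (0.37 and 0.56).

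BK channels take up beta subunits, which change their calcium sensitivity and inactivation, and gamma subunits, which shift their voltage range. Of the 4 beta genes, Kcnmb4 was the highest at 4.32 TPM in replicate 1 and 1.01 in replicate 2. Kcnmb2, the inactivating beta subunit, was at 0.86 and 0.65 TPM, Kcnmb3 at 0.51 and 0.16, and Kcnmb1, the beta subunit of smooth muscle, at 0.04 and 0.03 from 6 and 5 counts. The pore gene exceeded the highest beta gene by an amount that differed between the libraries: Kcnma1 was 5.10 times as high as Kcnmb4 in replicate 1 and 18.5 times in replicate 2. Of the 4 gamma genes, Lrrc55 was at 7.37 and 5.45 TPM, while Lrrc38 held 6 and 2 counts, and Lrrc26 and Lrrc52 each held 0 and 1. Lrrc55 thus stood above every beta gene in both libraries.

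Calmodulin, the calcium sensor bound to SK and Kv7 channels, was abundant. Calm2 was at 127 TPM in replicate 1 and 78.7 in replicate 2, and Calm3 at 75.7 and 47.2. The gene counts of Calm2 and Calm3 have decimals, which shows reads divided with other genes.

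Voltage-gated pore genes summed to 25.8 ± 3.54 TPM over 30 genes, of which 7 reached 1 TPM in both libraries. Kcnb2, a delayed rectifier that repolarizes the membrane after a spike, was at 0.15 TPM in replicate 1 and 0.09 in replicate 2 from 37 and 23 counts. Amigo1, a membrane protein that binds delayed rectifiers of the Kv2 family, was at 6.72 and 5.53 TPM.

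Kcnh2, the ERG channel known for its part in repolarization of the heart, was at 4.35 and 4.41 TPM from 479 and 475 counts (ENSMUSG00000038319.14, chromosome 5, 24319589 to 24351604, minus strand). No other gene of its 8-member family came near it, and Kcnh1 was at 0.11 and 0.08 TPM. Kcnc4, a fast Kv3 channel, was at 3.17 and 1.93 TPM, and Kcnc1 and Kcnc2 at 0.08 TPM or less in each library. Kcnd3, a Kv4 channel of the transient A-type current, was at 3.22 and 1.77 TPM, and Kcnd2 at 0.93 and 0.97. In TPM, Kcnd3 was thus higher in replicate 1 and Kcnd2 nearly equal. In the comparison of scaled counts given below, Kcnd2 was instead 1.40-fold higher in replicate 2 (interval 1.13 to 1.73). Dpp6, a partner of Kv4 channels, was at 1.90 and 1.65 TPM and Dpp10 at 0.03 and 0.08.

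In the Kv7 family, which gives the M-current of neurons and repolarizing currents in heart and epithelia, Kcnq1 was at 2.29 and 1.21 TPM. Kcnq3 was at 1.36 and 0.79 TPM and Kcnq5 at 0.16 and 0.19. In TPM, Kcnq1 and Kcnq3 were higher in replicate 1 and Kcnq5 slightly higher in replicate 2. In the comparison of scaled counts given below, Kcnq3 was instead 1.12-fold higher in replicate 2 (interval 0.95 to 1.31). Kcnq1 was 1.20-fold higher in replicate 1 there (0.96 to 1.51). Both intervals include equal levels, so neither direction was resolved, and Kcnq5 was not tested. The 8 genes of the Kv1 (Shaker-related) family were all below 1 TPM, led by Kcna5 at 0.69 and 0.58 TPM and Kcna1 at 0.71 and 0.47. They summed to 2.47 and 2.19 TPM.

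Silent voltage-gated subunits do not form working channels alone and join Kv2 subunits. Their 10 genes summed to 7.06 ± 0.509 TPM, and 1 gene held most of that. Kcng3, of the Kv6 family, was at 5.50 TPM in replicate 1 and 4.93 in replicate 2 from 628 and 618 counts (ENSMUSG00000045053.2, chromosome 17, 83585957 to 83631895, minus strand). It was the only silent subunit at 1 TPM in both libraries. Kcns3 followed at 1.25 and 0.99 TPM, then Kcng2 at 0.39 and 0.38, Kcng4 at 0.09 and 0.19, and Kcnf1 at 0.06 and 0.10. Kcns2, Kcng1, Kcnv1 and Kcnv2 held 13 counts or fewer in each library and Kcns1 held 0 in both.

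Inward rectifiers pass potassium near the resting potential and little when the cell depolarizes. Their 14 genes summed to 8.75 ± 1.32 TPM. Kcnj8, the Kir6.1 pore of ATP-sensitive (Katp) channels in vessel walls, was at 3.13 TPM in replicate 1 and 3.17 in replicate 2 from 266 and 285 counts (ENSMUSG00000030247.9, chromosome 6, 142564837 to 142571614, minus strand). Abcc9, the sulfonylurea receptor SUR2 that completes this channel and lies beside Kcnj8 on chromosome 6 (142587862 to 142702315, minus strand), was at 5.88 and 5.29 TPM. Both genes of this Katp pair kept nearly the same TPM in the libraries.

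The other Katp pair, known from pancreatic beta cells and neurons, was lower. Kcnj11 (Kir6.2, ENSMUSG00000096146.2, chromosome 7, 46093953 to 46100764, minus strand) was at 0.26 TPM in replicate 1 and 0.84 in replicate 2 from 27 and 51 counts. Abcc8 (SUR1), its neighbour on chromosome 7 (46104523 to 46180033, minus strand), was at 0.52 and 0.47 TPM from 29 and 57 counts. Kcnj8 was 12.04 times as high as Kcnj11 in replicate 1 and 3.77 times in replicate 2. In the second transcript tables that the authors made from the reads, these ratios were 4.37 and 2.49.

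Kcnj2, the classical Kir2.1 channel of muscle and endothelium, was at 3.78 and 1.96 TPM from 713 and 406 counts. The remaining inward rectifiers were below 1 TPM in both libraries, with Kcnj12 at 0.76 and 0.55 TPM and Kcnj4 at 0.68 and 0.38. With Kcnj5 left out by the rule, the G protein-gated genes were low, with Kcnj3 at 0.18 and 0.24, Kcnj6 at 0.22 and 0.19 and Kcnj9 at 0.07 and 0.06. Kcnj10, known from glia, was at 0.17 and 0.25 TPM and Kcnj15 at 0.27 and 0.10.

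Two-pore domain channels carry the background potassium current. With Kcnk3 and Kcnk9 left out, 12 genes remained, summing to 8.63 ± 2.26 TPM, and Kcnk2 was the only 1 of them at 1 TPM in both libraries. Kcnk2, the TREK-1 channel opened by stretch, lipids and heat, was at 4.87 TPM in replicate 1 and 4.88 in replicate 2 from 433 and 469 counts (ENSMUSG00000037624.15, chromosome 1, 189207930 to 189402273, minus strand). Kcnk5, the alkaline-sensitive TASK-2 channel, was at 2.59 and 0.52 TPM. Kcnk1 was at 1.46 and 0.86 TPM and Kcnk6, a close relative of it, at 0.80 and 0.37. These 3 genes were higher in replicate 1, while Kcnk2 was not. Kcnk13 was at 0.38 and 0.16 TPM, and Kcnk4, Kcnk10, Kcnk12, Kcnk15 and Kcnk16 at 0.08 TPM or less in each library.

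Auxiliary subunits change the gating or trafficking of the pores. Their 15 genes summed to 15.5 and 9.73 TPM in replicates 1 and 2, and 5 reached 1 TPM in both libraries. Besides Kcnmb4, these were Kcne4, a single-pass subunit that dampens Kv1 and Kv7 currents, at 2.46 and 1.40 TPM, and Kcnab3 and Kcnab2, cytoplasmic beta subunits of Kv1 channels, at 1.83 and 1.5 TPM and at 1.41 and 1.55. The fifth was Kcnip3, a calcium-binding partner of Kv4 channels, at 1.61 and 1.41 TPM. Its relatives were lower, with Kcnip1 at 1.05 and 0.66, Kcnip4 at 0.66 and 0.55, and Kcnip2 at 0.11 and 0.12. Kcne3 was at 0.30 and 0.34 TPM from 9 and 13 counts, and Kcne1 and Kcne2 held 2 counts or fewer.

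**Figure D2:**
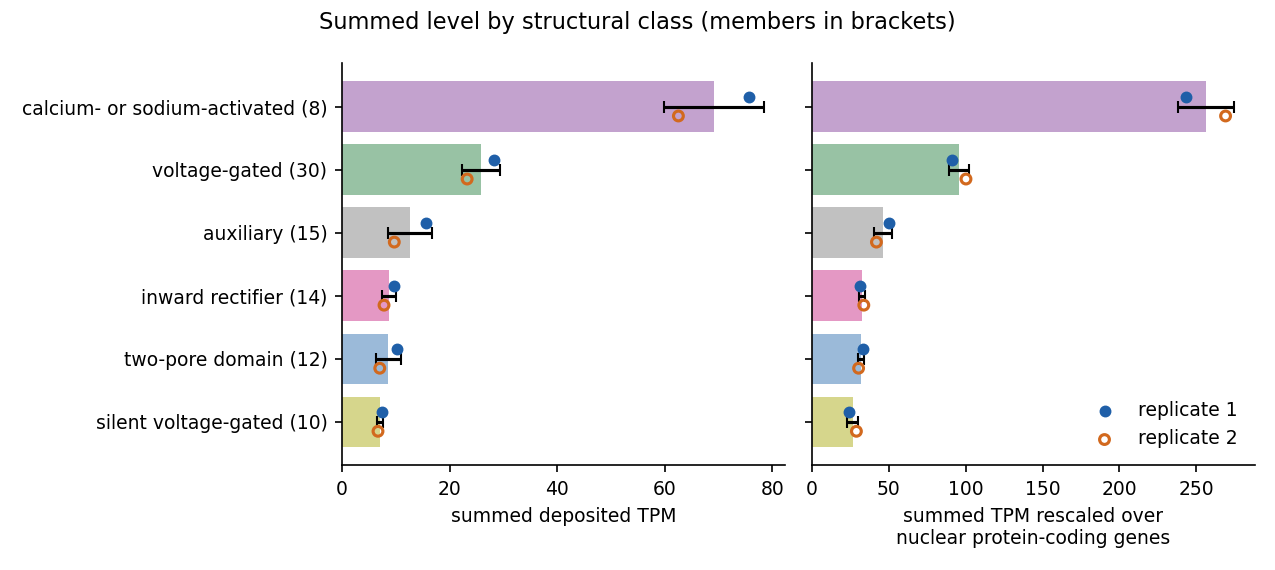
Summed level of each class in deposited TPM (left) and in TPM rescaled over nuclear protein-coding genes (right); bars are means over 2 libraries, error bars are SDs and points are the libraries. Calcium- and sodium-activated channels stand highest on both scales, at 69.1 and 256 in mean, and the libraries change places on the rescaled axis in 4 of the 6 classes.

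The order of the lower classes was less certain than that of the first ones. Calcium- and sodium-activated and voltage-gated genes came first and second in both libraries on both scales. Inward rectifiers and two-pore domain channels, at 8.75 and 8.63 TPM in mean, differed by less than either SD.

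At the low end, 6 genes held 0 counts in both libraries: Kcna10, Kcnj1, Kcnj16, Kcnk7, Kcnk18 and Kcns1. A count of 0 allows up to 3 counts per library, so these levels were not detectable in the gene table at this depth. The second transcript tables gave some TPM to Kcnj1, Kcnj16 and Kcns1 in both libraries, and none to Kcna10, Kcnk7 and Kcnk18. In all, 17 genes held 3 counts or fewer in each library. Kcnj1 is known as the ROMK channel of the kidney tubule, where Kcnj16 is also found, and Kcnk18 as the TRESK channel of sensory neurons.

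The list of partner genes held 20 genes, all found. Those reported and not yet given were the intracellular cation channels Tmem175 of the lysosome (6.39 and 5.34 TPM), Tmem38b (5.34 and 5.32) and Tmem38a (1.74 and 1.42), the regulator Kcnrg (0.05 and 0.09) and the HCN genes, which encode pacemaker channels of the same fold that also pass sodium. Hcn2 was at 1.31 and 1.17 TPM. Hcn3 was at 0.56 and 0.42 TPM and Hcn4 at 0.12 and 0.27.

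The libraries were then compared gene by gene. Counts were set against each other by a two-sided exact binomial test over 14780 genes with a mean CPM (reads scaled to the library's total) of at least 1, after TMM scaling, and a gene was called when its Benjamini-Hochberg adjusted p was under 0.05 and its ratio at least 2-fold. The test compares these libraries, not conditions, and its intervals cover counting error only. Of the 89 genes, 42 were tested and 3 were called (7.14%), against 6.87% of all genes tested. Kcnk5 and Kcnmb4 were higher in replicate 1, the direction of 1.74% of all genes, and Kcnj11 was higher in replicate 2, the direction of 5.13%. The share called among potassium channel genes was thus near the background. The median log2 ratio of replicate 2 over replicate 1 was 0.16 over the 42 genes and 0.01 over all genes tested, and 33 of the 42 (78.6%) lay within 1.5-fold, against 85.4% of tested coding genes. With library sizes taken from the spike-ins, ratios shifted by -0.89 on the log2 scale. The calls then split into 15 higher in replicate 1 and 0 in replicate 2, against 37.3% of all genes called. At an assumed coefficient of variation of 0.3 between libraries, edgeR's exact test called none of the 42 and 1.52% of all genes.

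**Figure D3:**
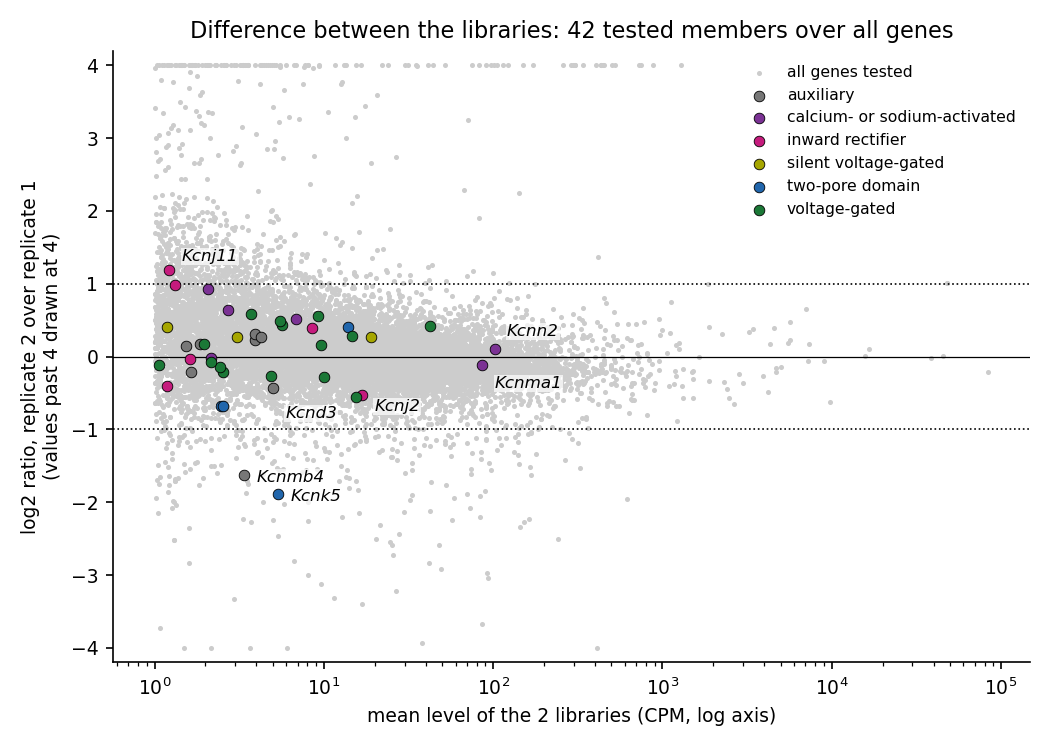
Log2 ratio of replicate 2 over replicate 1 against mean CPM (log axis) for all genes tested (grey) and the 42 tested potassium channel genes (coloured by class); dotted lines mark 2-fold. Kcnk5 and Kcnmb4 lie below the lower line, Kcnj11 lies above the upper one, and Kcnn2 and Kcnma1 lie near 0.

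The genes at the top of the order differed little. Kcnn2 was 1.08-fold higher in replicate 2 (95% interval 1.03 to 1.13) and Kcnma1 was 1.09-fold higher in replicate 1 (1.03 to 1.15). Kcnk2 was 1.32-fold higher in replicate 2 (1.16 to 1.51), Kcnj8 1.31-fold (1.10 to 1.55) and Kcng3 1.20-fold (1.07 to 1.35). Kcnj2 and Kcnd3 were higher in replicate 1, by 1.44-fold (1.27 to 1.63) and 1.47-fold (1.29 to 1.67). With TMM scaling none of these reached 2-fold. With spike-in scaling Kcnma1, Kcnj2 and Kcnd3 were called higher in replicate 1 (Kcnma1 at a log2 ratio of -1.01), and Kcnn2, Kcnk2, Kcnj8 and Kcng3 turned to higher in replicate 1 without reaching 2-fold. After TMM scaling, 24 of the 42 genes (57.1%) had an adjusted p under 0.05 at any fold, against 54.6% of all genes tested, a share near the background.

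Kcnk5 (ENSMUSG00000023243.9, chromosome 14, 20140057 to 20181809, minus strand) held 301 counts in replicate 1 and 66 in replicate 2. It was 3.73-fold higher in replicate 1 (95% interval 2.85 to 4.95, exact binomial test, adjusted p = 1.83e-26). Its neighbour Kcnk16, known from pancreas, held 0 and 2 counts. Kcnk5 is also known from kidney tubules. The 4 kidney epithelium markers summed to 70 and 43 counts. In replicate 1 all of these were Aqp2, and Umod, Slc12a1 and Slc12a3 were at 0. In replicate 2 Aqp2 held 33 counts, Umod 4, Slc12a3 6 and Slc12a1 0. Of the 4 markers, only Aqp2 was thus higher in replicate 1. Their part in the result was not tested.

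Kcnmb4 (ENSMUSG00000054934.10, chromosome 10, 116417861 to 116473878, minus strand) held 183 counts in replicate 1 and 48 in replicate 2, or 3.12-fold more in replicate 1 (95% interval 2.26 to 4.38, exact binomial test, adjusted p = 1.85e-13). The antisense gene Kcnmb4os2, which overlaps it on the opposite strand (116473163 to 116475319), had 68 expected counts against 16, a 3.48-fold excess in replicate 1 (2.00 to 6.43). The libraries were directional, but whether counting used strand is not given in the sources used here, so reads of the pair may not be told apart. Kcnma1, the pore that Kcnmb4 joins, differed by 1.09-fold. The 7 chromaffin cell genes held 102741 and 138292 counts, the reverse direction, and the 5 autonomic neuron genes held 1031 and 970. The 4 fasciculata genes held 764033 and 440712 counts, the same direction as Kcnmb4. Every one of these marker genes had counts in both libraries, and their part in the result was not tested.

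Kcnj11 was 2.31-fold higher in replicate 2 (95% interval 1.42 to 3.83, exact binomial test, adjusted p = 9.99e-04). Among tested genes of the Katp family, Abcc8 was 2.40-fold higher in replicate 2 by counts (1.51 to 3.89), and Kcnj8 and Abcc9 differed by 1.31-fold and 1.13-fold. In TPM, Abcc8 was instead slightly lower in replicate 2, at 0.52 and 0.47. Rescaled over nuclear protein-coding genes, Abcc8 was at 1.67 and 2.02, and at 0.861 and 2.11 in the second transcript tables. The 6 pancreatic islet markers were also higher in replicate 2, with 2 counts in replicate 1 (0.07 TPM) and 1718 in replicate 2 (90.9 TPM). Ins1, Ins2, Gcg and Iapp were at 0 in replicate 1 and all 6 had counts in replicate 2. Their part in the higher Kcnj11 and Abcc8 counts was not tested. Kcnj11 and Kcnmb4 were below a mean CPM of 5 and were not tested at that level, where Kcnk5 was the only potassium channel gene called. Of the partners, Hcn4 was also called, with 25 and 62 counts, 3.03-fold higher in replicate 2 (1.88 to 5.03).

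Transcript tables show which annotated forms carried these levels. The 89 genes have 388 annotated transcripts, 279 of them protein-coding. For the 19 genes at 1 TPM in both libraries, the leading transcript was the same in both libraries for 17 in the first transcript tables and for 14 in the second, and for 12 it was the same in all 4 tables. Several genes were carried mostly by 1 form: Kcng3-202 held 81.1% and 85.0% of the gene's TPM, Kcnd3-202 held 73.6% and 65.5%, and Kcnq1-201 held 79.9% and 94.2%. Kcnma1, with 38 annotated transcripts, was spread out, and its leading form Kcnma1-221 held 38.2% and 26.5%. Kcnn2-203 held 34.8% and 42.7% of Kcnn2. These shares are from the first tables. In the second, Kcnma1-221 held 35.5% and 18.3% and led in replicate 1 only. Kcnn2-203 held 26.9% and 32.6% there and led in replicate 2 only.

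In the first tables the leading transcript was protein-coding in 17 of the 19 genes in replicate 1 and in 16 in replicate 2. In Kcnk2 it was Kcnk2-203, annotated as a target of nonsense-mediated decay, which degrades transcripts with early stop codons. This form held 52.7% and 53.1% of the gene's TPM in the first tables, and 25.5% and 28.9% in the second, where it led in replicate 1 only. In Kcnab3 it was Kcnab3-203, a retained-intron form without a coding sequence, at 49.2% and 70.0%, and at 64.3% and 65.5% in the second tables. The coding form of Kcnab3 held 38.3% and 30%. Kcnn3 was split almost evenly, with a retained-intron form at 45.045% and 51.4%, which led only in replicate 2 of the first tables.

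Because only transcripts with the selectivity filter can encode a pore, the share of TPM on such transcripts was summed for the 14 pore-forming genes at 1 TPM in both libraries that hold the motif. In the first tables the share ranged from 47.3% to 100% in replicate 1 and from 41.0% to 100% in replicate 2, with medians of 83.5% and 82.2%. In the second tables the lowest shares were 55.6% and 50.7%. In 12 of the 14 it was above 50% in both libraries and both sets of tables. The exceptions, in the first tables only, were Kcnk2, at 47.3% and 41.0%, and Kcnn3, at 55.0% and 48.6%. The second tables gave Kcnk2 58.0% and 71.1%, and Kcnn3 55.6% and 50.7%. In the first tables Kcnn2 was at 77.7% and 68.1%, Kcnma1 at 87.7% and 67.5%, and Kcnj8 at 84.7% and 52.7%. In the second, Kcnn2 was at 79.5% and 71.7%, Kcnma1 at 78.2% and 60.4%, and Kcnj8 at 100% and 88.3%. Kcnj8 has 2 coding transcripts, and the shorter coding sequence, Kcnj8-201, lacks the motif.

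**Figure D4:**
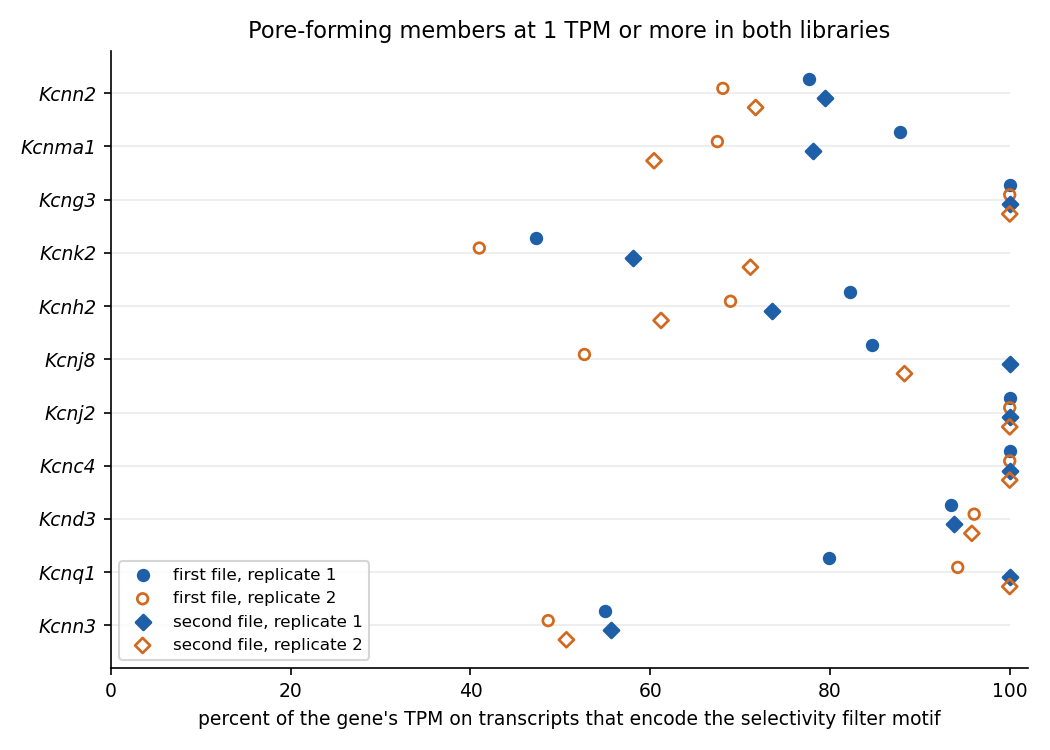
Percent of each gene's TPM on transcripts that encode the selectivity filter motif, for 11 of the 14 pore-forming genes at 1 TPM or more in both libraries, in the first (circles) and second (diamonds) transcript tables. Kcng3, Kcnj2 and Kcnc4 are at 100% throughout, and Kcnk2 and Kcnn3 are the genes with values below 50%, all in the first tables.

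Several of the genes lie close together, and neighbours could differ widely in level. Within 500 kb of each other, the genes formed 11 groups. On chromosome 3, Kcnc4 was at 2.55 TPM in mean, while Kcna3, Kcna2 and Kcna10, which share a 423384-base interval with it, were at 0.20, 0.38 and 0. On chromosome 11, Kcnj2 was at 2.87 TPM in mean and Kcnj16, within a 108789-base interval, at 0. On chromosome 6, Kcna5, Kcna1 and Kcna6 were alike, between 0.41 and 0.64 TPM.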

How the data were processed

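For each library the authors deposited 1 gene table and 2 tables of transcripts, with mm10 and GENCODE M21 named per the file headers. Expected counts and TPM of the gene table and of the first transcript table were made by the authors from transcriptome alignments. In the second transcript table, estimated counts and TPM were made by the authors straight from reads. TPM were deposited scaled over all entries, tRNA and spike-ins included. Which programs were used is not given in the sources used here.

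Potassium channel genes were found by symbol in the second transcript table, and all 55536 gene identifiers matched the annotation. The genes, lists and tests were chosen with earlier results of these data known. Levels are deposited TPM, as mean and SD over 2 libraries. Entries that name no gene (26345 spike-in, tRNA and phiX entries, 0.843% and 1.50% of counts) stayed out of the test. Expected counts were rounded, scaled by TMM (edgeR 4.0.16, R 4.3.3) and compared by the exact binomial test (scipy 1.17.1), with 0.5 added for log2 ratios. Counts of 0 have a floor of 3. Since reads here carry no molecular identifiers, the floor and the exact 95% intervals reflect counting error alone. The test was run on simulated data first. The planned protein stretches were replaced by coding DNA, read from GENCODE M21 transcripts and translated with Biopython 1.88. Named with full values were the highest gene of each subfamily, the 25 highest genes, all genes called, and the Katp, SK and BK genes. Values of some of these genes are in the sums and not given singly. Alternatives were DESeq2 1.42.0 size factors and the other settings given at the end.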

Additional observations from a re-analysis of the deposited data

Results flagged for a closer look

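Signal was also found in annotated entries that no potassium channel comparison used. The antisense gene Kcnq1ot1 held 3647 expected counts in replicate 1 and 5236 in replicate 2, 1.75-fold higher in replicate 2 (95% interval 1.68 to 1.83), while Kcnq1 on the opposite strand held 192 and 131. Kcnmb4os2 held 68 and 16 counts, as given beside Kcnmb4.

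Entries inside potassium channel genes on the same strand, nearly all of the annotation class TEC (loci awaiting experimental evidence), were higher in replicate 2 in several genes. Inside Kcnip4, 24 such entries summed to 81 counts in replicate 1 and 315 in replicate 2, 4.75-fold higher in replicate 2 (3.71 to 6.14), with 23 of the 23 that held counts higher there. Kcnip4 itself held 53 and 48 counts. Inside Kcnd2 they summed to 28 and 83 counts, 3.62-fold higher (2.33 to 5.77), against 166 and 190 for Kcnd2. Inside Kcnd3 they held 11 and 21 counts, inside Kcnq1 8 and 17, inside Kcnmb2 2 and 17 (10.4-fold, 2.46 to 92.6), inside Kcnt2 9 and 9, and inside Kcnb2 6 and 7. These sums were chosen after their values were seen.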

How the results depend on the processing

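With 1 group of 2 libraries, no left-out library leaves a ratio to test. No paired analysis was possible because there is 1 group. The number of genes at 1 TPM in both libraries was 19, and 41 when levels were rescaled over nuclear protein-coding genes, 34 in the second transcript tables, 44 in these rescaled, 31 at 0.5 TPM and 7 at 2 TPM. It was 19 to 24 with either library alone. At 0.5 TPM the share was 34.8%, against 57.4% of nuclear protein-coding genes, and at 2 TPM it was 7.87%, against 46.0%. The share of all coding genes was not counted in the rescaled and second-table settings. The summed level of the 89 genes, 132 TPM, became 488, 271 and 461 in the first 3 of these settings, and 117 to 147 with either library alone. Leading transcripts were the same in both sets of tables for 14 to 16 of 19 genes in a single library.

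Genes called higher in replicate 2 and in replicate 1 numbered 1 and 2 of 42 tested, with 6.87% of all genes called. They were 0 and 15 with spike-in scaling (37.3% of all genes called), 5 and 4 at 1.5-fold (16.6%) and 0 and 0 at a coefficient of variation of 0.3 (1.52%), each with 42 tested. They were 3 and 3 of 83 tested with no filter (7.92% of all genes), 0 and 1 of 17 at a mean CPM of 5 (3.12%), and 2 and 2 of 47 in the second tables (8.65%). The other scalings, added counts, a coefficient of 0.1 and omission of 89 genes in excess by 32-fold or more in replicate 2 gave 1 and 2. With spike-in scaling the median log2 ratio of the tested genes turned to -0.73, and the ratios of Kcnn2, Kcng3, Kcnk2 and Kcnh2 to -0.78, -0.63, -0.49 and -0.62. The scalings differ by construction in what they hold equal. Depth limits most of these genes: 47 of 89 were below the level for a test.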

Other observations

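The same class of entries was then looked at over all genes. Of 3219 TEC entries, 402 were tested between the libraries by the exact binomial test and 161 were called (40.0%), 158 of them higher in replicate 2, against 6.87% of all genes tested. Their median log2 ratio of replicate 2 over replicate 1 was 0.84. The higher counts inside Kcnip4 and Kcnd2 were thus in the direction of the whole class.

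By mean TPM, Kcnn2 had 4.81% of nuclear protein-coding genes above it and Kcnma1 12.2%, while Kcng3 had 36.03%.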
